A study of Mus musculus with 6 samples.

Results

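The genes described are the nuclear-encoded subunits of oxidative phosphorylation, the enzyme chain of the inner mitochondrial membrane that turns the energy of nutrients into ATP. They were chosen by gene name alone: symbols beginning with Ndufa, Ndufb, Ndufc, Ndufs or Ndufv and a number, Sdha to Sdhd, symbols beginning with Uqcr, Cox4 to Cox8 followed by a letter, and symbols beginning with Atp5. Of 21033 gene symbols counted, 83 met this rule, 37 for complex I, 4 for complex II, 8 for complex III, 18 for complex IV and 16 for complex V. Transcripts were counted in primary mouse synovial fibroblasts, the mesenchymal cells of the joint lining and sublining, isolated from ankle joints and kept for 3 passages. One group received 10 µM compound 33 for 48 h and the other DMSO, its vehicle, for the same time, with 3 libraries in each group. All cells, controls included, carried the hTNFtg genotype, a human TNF transgene that causes chronic arthritis in mice, and the labels give neither the age of the mice nor whether replicates were separate animals or cultures. P-values are therefore set against the scatter of the 6 libraries alone, and that scatter may be technical.

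The libraries held 1594052, 2384850 and 2073016 reads with compound 33, and 1913730, 2179455 and 2897207 reads with DMSO. They were made with a 3′ mRNA kit, in which each transcript gives reads near its poly(A) tail, so a gene's count does not grow with its length. Levels are given as CPM, the reads of a gene per 1e+06 reads of the scaled library. All 10 fibroblast markers looked up were present, from 111 CPM for Cdh11 to 3244 CPM for Pdpn with compound 33, and from 144 CPM for Cdh11 and Pdgfra to 3767 CPM for Pdpn with DMSO. Thy1 stood at 427, 525 and 507 CPM with compound 33, against 851, 871 and 574 CPM with DMSO. Pdgfrb stood at 254, 303 and 264 CPM, against 123, 206 and 205 CPM with DMSO. Only these markers had separate groups (20%, against 13.4% of all genes tested), and neither passed in edgeR (adjusted p = 0.605 and 0.671). Among markers of other cells, the macrophage gene Ptprc had at most 4 reads in a library, and the endothelial gene Pecam1, the cartilage gene Acan and the muscle myosins Myh2 and Myh4 had 0 in every library. Other genes of these lists were present, with Lyz2 and Cd14 of the macrophage list at 50.8 and 18.3 CPM with compound 33, against 60.4 and 25.9 CPM with DMSO. Sox9 and Comp of the cartilage list averaged 103 and 28.7 CPM with compound 33, against 109 and 19.4 CPM with DMSO, and Fabp4 of the adipocyte list 131 CPM with compound 33, against 114 CPM with DMSO. Summed, the 8 macrophage markers ran from 52.7 to 99.3 CPM with compound 33 and from 63.6 to 138 CPM with DMSO. The 6 cartilage markers ran from 112 to 159.6 CPM with compound 33 and from 81.1 to 166 CPM with DMSO, and the 6 adipocyte markers from 102 to 166 CPM with compound 33 and from 51.4 to 148 CPM with DMSO. The 6 endothelial markers together came to 5.50, 9.54 and 5.15 CPM with compound 33, against 3.71, 3.16 and 2.44 CPM with DMSO. These are bulk measurements, in which fewer cells of a type and less RNA per cell cannot be told apart.

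In oxidative phosphorylation, complex I takes electrons from NADH and complex II takes them from succinate, and both pass them to ubiquinone. Complex III moves them on to cytochrome c and complex IV to oxygen, while complexes I, III and IV pump protons whose return through complex V drives ATP synthesis. Complexes I, III, IV and V are built from products of both the nuclear and the mitochondrial genome, whereas complex II is wholly nuclear-encoded. The table held 0 genes of the mitochondrial genome, so the mitochondrial partners of these subunits were not analysed here. In mammals the transcription factors NRF1 and GABP, an ETS family protein, are known activators of many of these nuclear genes, and YY1 binds the promoters of some of them.

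The promoters of the members were read for the letters of these factors. RefSeq windows on GRCm38.p6, from 250 bases before to 50 bases after the transcript start, were found for 68 of the 83 members by symbol or synonym, and 37 of the 68 held at least 1 of the 3 motifs. The NRF1 motif, read as GCGC, any base and TGCGC, was in the windows of 17 members (25.0%). It was in 5.19% of all 27025 genes with a window and 12.6% of the 7985 tested genes with a window. The ETS motif CCGGAAG was in 16 members (23.5%), against 9.93% of all genes with a window and 21.9% of tested genes. AAGATGGC, a YY1 motif, was in 10 members (14.7%), against 3.19% of all genes with a window and 5.82% of tested genes. Both strands were searched, and AAGATGGC holds the letters of a start codon, so that it can mark the beginning of a reading frame as well. The member genes with a match in these windows are those in which the letters occur, which does not show that a factor binds. The median log2 fold change of compound 33 over DMSO was -0.04 for the 17 tested members with an NRF1 match and -0.16 for the 47 without. It was -0.03 for the 16 with an ETS match and -0.14 for the 48 without. For AAGATGGC it was -0.26 with a match (10 members) and -0.10 without (54 members), so members with and without a match differed by at most 0.16. The sites below belong to members whose levels are described further on, are written 5′ to 3′ along the gene's strand, and carry the matched letters in capitals. A match on the strand opposite to the gene reads CTTCCGG for ETS, and GCGCA, any base and GCGC for NRF1. All 8 sequences are from genes on the minus strand of mm10.
Sdhd NRF1 match, chr9:50603909-50603938: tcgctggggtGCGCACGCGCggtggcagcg
Sdhd ETS match, chr9:50603879-50603905: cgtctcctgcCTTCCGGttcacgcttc
Cox6a1 NRF1 match, chr5:115349101-115349130: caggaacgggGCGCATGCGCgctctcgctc
Cox6a1 ETS match, chr5:115348958-115348984: cccatttccgCTTCCGGcgcgccggtg
Sdha NRF1 match, chr13:74350276-74350305: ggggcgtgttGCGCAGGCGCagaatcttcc
Ndufs3 ETS match, chr2:90904732-90904758: ccgcgtccgcCCGGAAGaagagtcact
Ndufb8 AAGATGGC match, chr19:44555393-44555414: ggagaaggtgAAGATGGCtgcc
Cox8a ETS match, chr19:7217605-7217631: ttccgaaataCTTCCGGctcgggcgtc
Sdhd, Cox6a1, Atp5h and Atp5k are the members with both an NRF1 and an ETS match. Their log2 fold changes were -0.67, -0.51, -0.04 and 0.18, of both signs.

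The comparison of compound 33 with DMSO asked whether the transcripts of these subunits differ in treated arthritic fibroblasts. No subunit passed the test. Of the 83 members, 76 had enough reads to be tested, at mean levels from 4.93 CPM for Cox6b2 to 1608 CPM for Atp5g3, and the smallest adjusted p among them was 0.508, for Sdhd (edgeR quasi-likelihood test, adjusted over all genes tested). Over all 10124 genes tested 3 passed (0.0296%). At an unadjusted p under 0.05 in edgeR, 2 of 76 members (2.63%) were lower with compound 33, Sdhd and Cox6a1, and 0 were higher, against 6.87% of all genes tested, 3.23% lower and 3.64% higher. The libraries of the groups did not overlap for 10 of 76 members (13.2%), against 13.4% of all genes. By direction, 8 members (10.5%) were lower with compound 33, against 6.73% of all genes, and 2 (2.63%) were higher, against 6.64% of all genes. The share of members with separate groups was thus close to that of genes in general, with more of them lower and fewer higher.

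Most estimates were small and slightly negative. The median log2 fold change of the 76 tested members was -0.12, against -0.01 over all genes tested, and 48 members (63.2%) had a negative value, against 51.1% of all genes. For 70 of the 76 the 95% interval of the log2 fold change lay wholly between -1 and 1, against 65.7% of all genes, and the interval reached 0.49 to either side of the estimate at the median. A change of more than 2-fold in either direction thus lay outside the interval of most subunits. Leaving out 1 library at a time, the members' median was lowest, at -0.19, when DMSO replicate 3 was dropped and highest, at -0.03, when DMSO replicate 2 was. Without DMSO replicate 1, 7 of 78 tested members lay under an unadjusted 0.05, 4 lower and 3 higher, where 9.17% of all genes did.

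**Figure D1:**
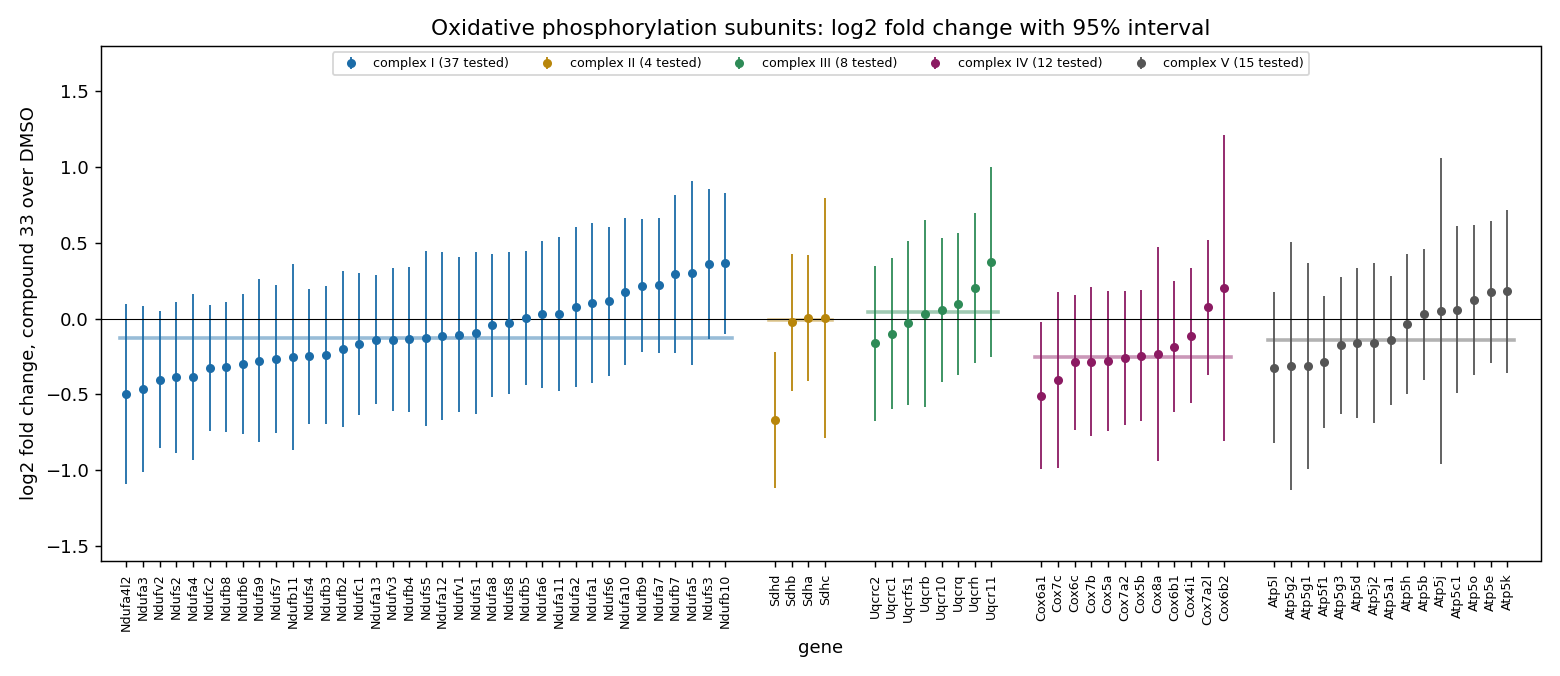
Log2 fold change of compound 33 over DMSO for the 76 tested members (vertical axis), ordered within each complex (horizontal axis, 1 gene per position). Points are edgeR estimates, lines are 95% intervals and pale bars are the medians of each complex, which lie at -0.13 for complex I, -0.01 for complex II, 0.05 for complex III, -0.25 for complex IV and -0.14 for complex V; the intervals of all members but Sdhd and Cox6a1 include 0.

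Complex I, the NADH dehydrogenase, had all its 37 members tested, with a median log2 fold change of -0.13 and 24 negative values. Its 7 core subunits, which carry the flavin and the iron-sulphur clusters or shape the quinone site, ran from -0.40 for Ndufv2 to 0.36 for Ndufs3, and 6 of them were negative. Ndufv2, an iron-sulphur subunit of the NADH-oxidising tip, stood at 64.8, 66.3 and 60.7 CPM with compound 33, against 92.8, 72.6 and 88.4 CPM with DMSO. All compound 33 libraries lay below all DMSO libraries, and the adjusted p was 0.769. Ndufs3, a core subunit of the module that binds quinone, went the other way, at 38.5, 46.4 and 53.0 CPM with compound 33, against 35.5, 33.8 and 37.9 CPM with DMSO. Its groups did not overlap either, with an adjusted p of 0.825, so the core subunits gave estimates of both signs.

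The accessory subunits, which surround this core and are needed for its assembly or stability, also went both ways. The 12 tested members Ndufa1 to Ndufa13, with Ndufa4 set apart, had a median of 0.03, and 7 of them were positive. Of these Ndufa3 was lowest, at 104, 95.4 and 134 CPM with compound 33, against 212, 126 and 124 CPM with DMSO. The groups overlapped, and DMSO replicate 1 was the highest library. Ndufa5 was highest, at 165, 231 and 297 CPM with compound 33, against 265, 136 and 163 CPM with DMSO, again with overlap. The 3 members of complex I with the largest CPM were Ndufb3, Ndufa2 and Ndufa7. Ndufb3 stood at 352, 395 and 493 CPM with compound 33, against 534, 448 and 480.1 CPM with DMSO (log2 fold change -0.24, SE 0.21). Ndufa2 stood at 311, 338 and 486 CPM with compound 33, against 458, 314 and 306 CPM with DMSO (0.08, SE 0.24), and Ndufa7 at 333, 300.2 and 250.2 CPM, against 218, 265 and 276 CPM with DMSO (0.22, SE 0.21). The groups overlapped for all 3.

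The 10 Ndufb subunits, which lie in the membrane arm, had a median log2 fold change of -0.17, and 6 were negative. Ndufb8 stood at 159, 181 and 177 CPM with compound 33, against 244, 210.2 and 192 CPM with DMSO, so its groups did not overlap (log2 fold change -0.32, adjusted p = 0.823). Exons of Ndufb8 overlap those of Gm20538 on the same strand, and 4 members have such an overlap. Reads from a stretch shared in this way cannot be told apart by strand. Ndufb10 had the highest log2 fold change of complex I, 0.36 (SE 0.22, adjusted p = 0.806), at 110.0, 112 and 127 CPM with compound 33, against 109, 87.1 and 75.5 CPM with DMSO. Its groups were separated by little more than 1 CPM. Ndufb6 and Ndufc2 were the remaining complex I members with separate groups, both lower with compound 33, at log2 fold changes of -0.30 and -0.33. The groups lay apart for 16.2% of complex I members, 10.8% lower and 5.41% higher. Over all genes tested this share was 13.4%, 6.73% lower and 6.64% higher. Ndufs4, Ndufs5, Ndufs6 and Ndufv3, the accessory subunits with Ndufs or Ndufv names, ran from -0.25 to 0.11.

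Ndufa4 and Ndufa4l2 bear complex I names, but NDUFA4 is known as a subunit of complex IV, and NDUFA4L2 is a hypoxia-induced relative that lowers complex I activity. Ndufa4 stood at 28.1, 34.4 and 42.2 CPM with compound 33, against 44.0, 55.9 and 37.3 CPM with DMSO (log2 fold change -0.38, SE 0.25). Ndufa4l2 stood at 20.2, 29.8 and 23.2 CPM, against 26.5, 32.0 and 44.9 CPM with DMSO, and its log2 fold change of -0.50 was the lowest among the complex I names (SE 0.28, adjusted p = 0.785). For both genes the groups overlapped. Exons of Ndufa4l2 overlap those of Shmt2 on the opposite strand. Without a stated strand setting, reads from such a shared stretch cannot be told apart. Exon overlap with a gene on the opposite strand was found for 25 of the 83 members, among them Ndufa3, Ndufs3, Ndufb6, Cox6c and Cox6a2. Whether these overlaps lie near the poly(A) tail, where the reads of these libraries fall, was not checked.

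Complex II, or succinate dehydrogenase, links the citric acid cycle to the respiratory chain, and it has 4 subunits, all tested. Sdhd, a membrane anchor of the complex, stood at 78.9, 70.1 and 69.0 CPM with compound 33, against 129, 114 and 104 CPM with DMSO. Every compound 33 library lay below every DMSO library, and the mean with compound 33 was 62.9% of that with DMSO. The log2 fold change was -0.67 (SE 0.21, 95% interval -1.12 to -0.22, edgeR unadjusted p = 0.00646, adjusted p = 0.508), the lowest of all 76 tested members, and it did not pass. Dropping a library gave values between -0.74 (DMSO replicate 3 dropped) and -0.58 (DMSO replicate 1 dropped), with an unadjusted p of up to 0.0337 in edgeR. Sdhd lies on chromosome 9 of mm10 at 50596357 to 50603812 on the minus strand, is protein coding, and its exons overlap no other annotated gene.

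Sdha, the flavoprotein that oxidises succinate, stood at 238, 291 and 258 CPM with compound 33, against 248, 269 and 269 CPM with DMSO. Sdhb, the iron-sulphur subunit, stood at 178, 212 and 145 CPM, against 169, 178 and 197 CPM with DMSO. Both catalytic subunits had overlapping groups and log2 fold changes close to 0, at 0.00 (SE 0.19) and -0.02 (SE 0.21). Sdhc, the partner anchor of Sdhd, stood at 262, 226 and 73.1 CPM with compound 33, against 152, 229 and 177 CPM with DMSO. Compound 33 replicate 3 was far below the other 5 libraries, and the log2 fold change was 0.01 (SE 0.36) over all libraries, 0.40 without that replicate and -0.31 without compound 33 replicate 1. Sdhd was the only complex II member with separate groups (25%, against 13.4% of all genes tested). Whether Sdhd differed from the other subunits of complex II was not tested.

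**Figure D2:**
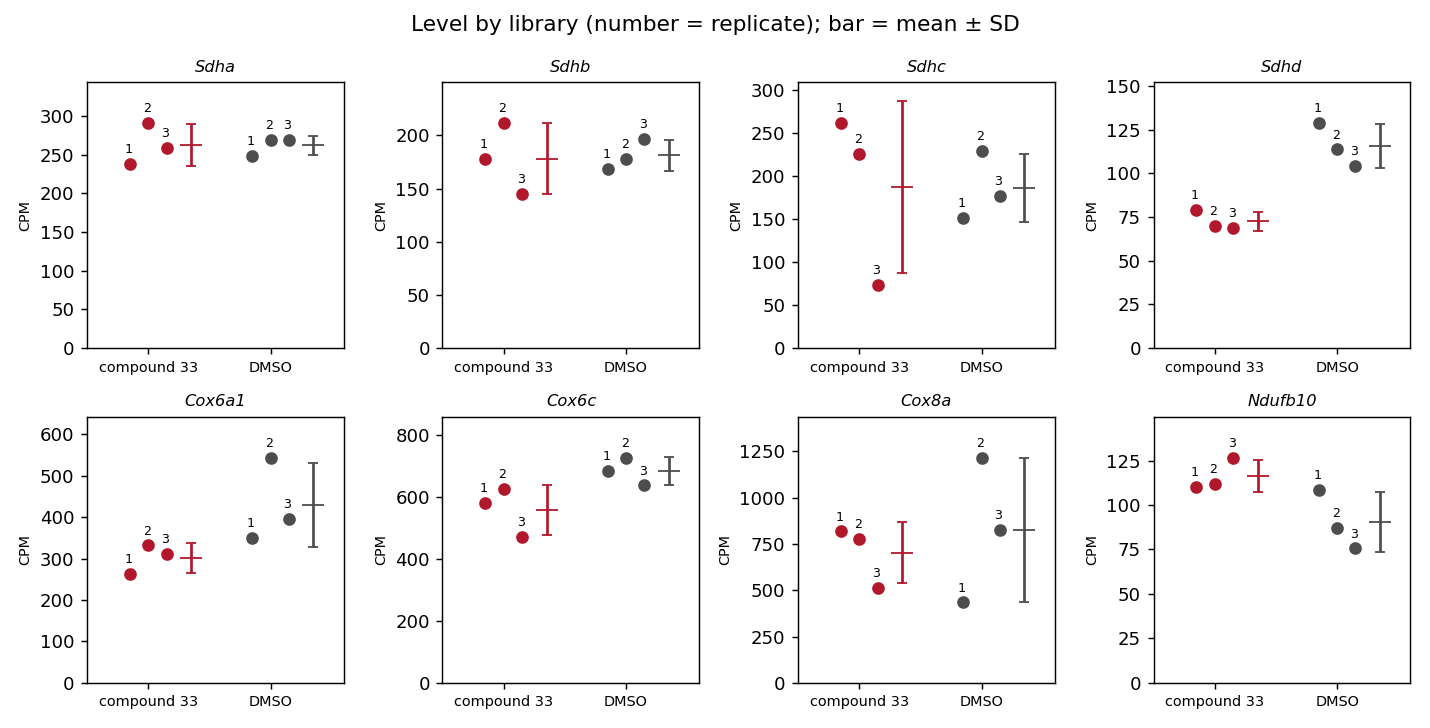
Level in CPM (vertical axis, from 0) of the 4 complex II subunits and of Cox6a1, Cox6c, Cox8a and Ndufb10 in each library, with compound 33 to the left of DMSO; numbers are replicates and bars are mean ± SD of 3 libraries. The groups are apart for Sdhd, Cox6a1, Cox6c and Ndufb10 and overlap for Sdha, Sdhb, Sdhc and Cox8a.

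Complex III, the cytochrome bc1 complex, was the complex with a positive median, 0.05 over 8 members, 5 of them positive, though it was -0.06 without DMSO replicate 1. None had an unadjusted p under 0.05 in edgeR, and the smallest adjusted p was 0.888. The groups overlapped for all 8, so 0% lay apart, against 13.4% of all genes tested. Uqcrc1 and Uqcrc2, the large core proteins, had log2 fold changes of -0.10 (SE 0.23) and -0.16 (SE 0.24), and Uqcrfs1, the Rieske iron-sulphur protein, had -0.03 (SE 0.25). Uqcrh, the hinge protein, had the largest CPM, at 463, 514 and 548 CPM with compound 33, against 319, 484 and 522 CPM with DMSO. Uqcr11, a small subunit, had the highest log2 fold change of all tested members, 0.37 (SE 0.29, adjusted p = 0.888). It stood at 128, 104 and 135 CPM with compound 33, against 52.0, 130.4 and 101 CPM with DMSO, and without DMSO replicate 1, the lowest library, the log2 fold change was 0.09. Uqcrb, another small subunit, varied within both groups, at 196, 255 and 125 CPM with compound 33, against 127, 238 and 197 CPM with DMSO. Uqcrq, likewise a small subunit, stood at 238, 239 and 289 CPM, against 301, 201 and 214 CPM with DMSO. Uqcrc2 had the lowest estimate of the complex, at 91.1, 74.2 and 53.0 CPM with compound 33, against 78.5, 88.9 and 76.6 CPM with DMSO. The groups of all these genes overlapped.

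Complex IV, cytochrome c oxidase, had the lowest median of the 5 complexes, -0.25 over 12 tested members, 10 of them negative. It ran from -0.31 without DMSO replicate 3 to -0.16 without compound 33 replicate 3, so the sign held whichever library was left out. The medians of complex I, of complex V and of all members stayed negative in the same way. Cox6a1, the widely expressed form of subunit VIa, stood at 263, 332 and 311 CPM with compound 33, against 349, 544 and 396 CPM with DMSO. The groups did not overlap, and the mean with compound 33 was 70.2% of that with DMSO. Its log2 fold change was -0.51 (SE 0.22, 95% interval -0.99 to -0.02, edgeR unadjusted p = 0.0407, adjusted p = 0.72), and it was -0.30 without DMSO replicate 2, the highest of the 6 libraries, and -0.64 without DMSO replicate 1. Its unadjusted p in edgeR was 0.0115 without DMSO replicate 1 and above 0.05, from 0.0567 to 0.21, without any other library. Cox6a1 lies on chromosome 5 of mm10 at 115345642 to 115348981 on the minus strand, with no exon overlap. Cox6c stood at 581, 627 and 470.5 CPM with compound 33, against 685, 727 and 637 CPM with DMSO. These groups did not overlap either (log2 fold change -0.29, SE 0.21, adjusted p = 0.872), nor did those of Cox5b (-0.24, SE 0.20, adjusted p = 0.89). Groups thus lay apart for 3 of the 12 tested members (25%), all lower, against 13.4% of all genes, 6.73% lower. With 12 members such a share is coarse, and it was not tested.

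The other widely expressed subunits of complex IV gave estimates of the same sign with overlapping groups. Cox7c had a log2 fold change of -0.40 (SE 0.27), Cox7b -0.28 (SE 0.23), Cox5a -0.28 (SE 0.21), Cox7a2 -0.26 (SE 0.21), Cox6b1 -0.18 (SE 0.20) and Cox4i1 -0.11 (SE 0.21). Cox7b stood at 112, 113 and 75.2 CPM with compound 33, against 139, 115 and 111 CPM with DMSO. Cox7a2, the widely expressed form of subunit VIIa, stood at 218, 233 and 228 CPM, against 304, 292 and 217 CPM with DMSO. Cox6b1, the somatic form of subunit VIb, stood at 289.8, 332 and 324 CPM, against 332, 411 and 332 CPM with DMSO. In both of these genes DMSO replicate 3, the lowest DMSO library, lay below at least 1 compound 33 library. Cox4i1, the widely expressed form of subunit IV, stood at 353, 289 and 260.5 CPM with compound 33, against 331, 352 and 291 CPM with DMSO. Cox8a, a small subunit with the largest CPM of complex IV, was the most uneven of them, at 817, 779 and 512 CPM with compound 33, against 434, 1216 and 827 CPM with DMSO. Its log2 fold change was -0.23 over all libraries, 0.16 without DMSO replicate 2 and -0.54 without DMSO replicate 1. Cox7a2l, which in mammals helps to join complex IV to complex III in supercomplexes, was the positive exception among the 11 widely expressed subunits, at 0.07 (SE 0.21). It stood at 424, 455 and 569 CPM with compound 33, against 469.8, 419 and 487 CPM with DMSO.

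Complex IV is also the complex with most alternative forms, and those of muscle, lung or testis were near 0. Cox7b2 and Cox8c had 0 reads in every library, Cox8b had 1 read in compound 33 replicate 2 and 0 elsewhere, and Cox4i2, the lung form, had at most 2 reads in any library. Cox6b2, the testis form, was the only one tested, at 3.06, 4.97 and 7.72 CPM with compound 33, against 4.24, 5.41 and 4.18 CPM with DMSO (log2 fold change 0.20, SE 0.47). Cox7a1, a heart and muscle form, had 1, 5 and 3 reads with compound 33, against 8, 1 and 10 reads with DMSO. The groups overlapped for both.

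Cox6a2, the heart and muscle form of subunit VIa, had 7, 11 and 10 reads with compound 33, against 3, 3 and 1 reads with DMSO, or 4.28, 4.56 and 5.15 CPM against 1.59, 1.35 and 0.348 CPM. All compound 33 libraries lay above all DMSO libraries. These counts were too low for the filter, and without it edgeR gave a log2 fold change of 2.12 (SE 0.76, unadjusted p = 0.00551, adjusted p = 0.444), which did not pass. As a share of the reads of Cox6a1 and Cox6a2 together, Cox6a2 made up 1.6%, 1.35% and 1.63% with compound 33, against 0.453%, 0.248% and 0.0878% with DMSO. The 95% Wilson intervals, which cover counting error only, ran from 0.758% to 3.27% over the compound 33 libraries and from 0.0155% to 1.32% over the DMSO libraries. In an exact two-sided permutation test of this share p was 0.1, the smallest that 3 against 3 libraries allow, and 0.5 after adjustment over the 5 shares tested. The shares of Cox7a1, Cox6b2, Cox4i2 and Ndufa4l2 against their common partners gave exact permutation p-values from 0.4 to 0.8. Beside Cox6a2, the muscle gene Des had 7, 6 and 4 reads with compound 33, against 1, 1 and 1 with DMSO. Other genes of the muscle list went the other way. Mylpf had 3, 9 and 2 reads with compound 33, against 9, 13 and 7 with DMSO, and Acta1 averaged 24.8 CPM, against 30.6 CPM with DMSO. The 9 muscle markers together stood at 38.5, 32.3 and 22.1 CPM with compound 33, against 45.6, 37.4 and 27.2 CPM with DMSO, mostly from Acta1, and the myosins Myh2 and Myh4 had 0 reads. Their part in the Cox6a2 values was not tested. Exons of Cox6a2, on chromosome 7 of mm10 at 128205435 to 128206387, overlap those of Itgad on the opposite strand.

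**Figure D3:**
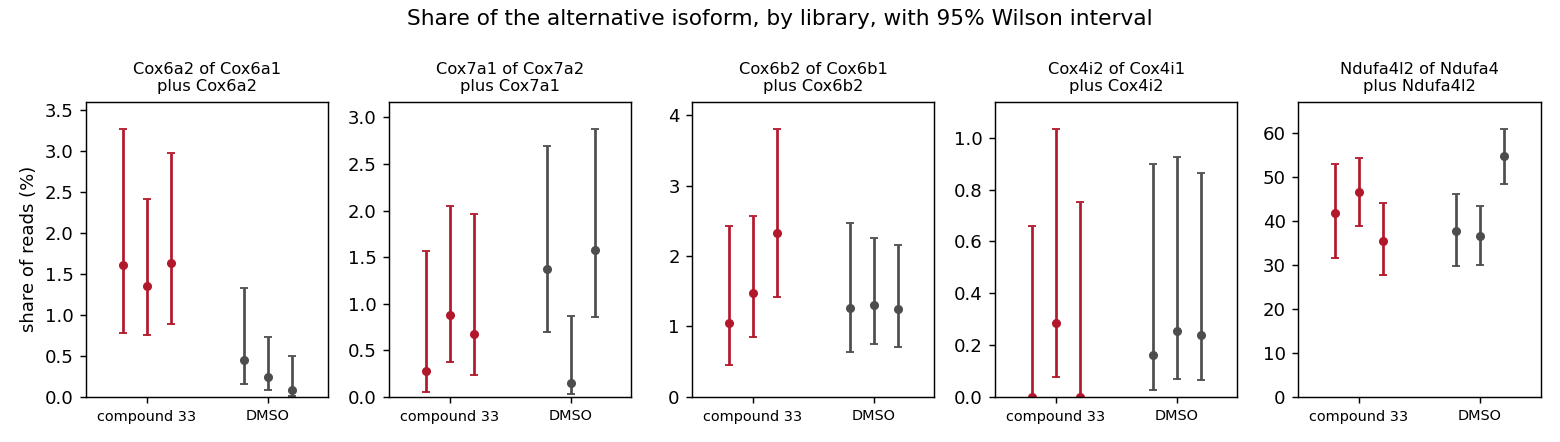
Share of reads (percent, vertical axis from 0) of 5 alternative isoforms among the reads of that isoform and its common partner, in each library, with compound 33 to the left of DMSO; points are libraries and bars are 95% Wilson intervals. For Cox6a2 all 3 compound 33 libraries, at 1.35% to 1.63%, lie above the DMSO libraries, at 0.0878% to 0.453%, and for the other 4 isoforms the groups overlap.

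Complex V, the ATP synthase, had 15 of 16 members tested, with a median log2 fold change of -0.14 and 9 negative values. None had an unadjusted p under 0.05 in edgeR, and the smallest adjusted p was 0.863. No member had separate groups (0%, against 13.4% of all genes tested). The 5 subunits of the catalytic F1 head had a median of 0.03. Atp5b, its catalytic β subunit, stood at 593, 682 and 560.0 CPM with compound 33, against 569, 622 and 607 CPM with DMSO. Atp5a1, the α subunit, stood at 466, 505 and 531 CPM, against 582, 563 and 514 CPM with DMSO. The groups overlapped for both (log2 fold changes 0.03, SE 0.20, and -0.14, SE 0.20).

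The rotor and stalk of complex V also had overlapping groups. Atp5g1, Atp5g2 and Atp5g3 encode the same mature c subunit of the proton-driven ring and differ in their import sequences, and their log2 fold changes were -0.31 (SE 0.31), -0.31 (SE 0.38) and -0.18 (SE 0.21). Atp5g3 had the largest CPM of all members, at 1659, 1558 and 1312 CPM with compound 33, against 1622, 1668 and 1827 CPM with DMSO. Compound 33 replicate 3 was its lowest library and DMSO replicate 3 its highest, with overlap between the groups. The 7 stalk and membrane subunits ran from -0.32 for Atp5l to 0.18 for Atp5k, with a median of -0.04. Atp5l, the g subunit, stood at 96.0, 142 and 127 CPM with compound 33, against 188, 129.9 and 139.6 CPM with DMSO. Atp5k, the e subunit, stood at 265, 363 and 453 CPM, against 385, 240.0 and 329 CPM with DMSO. Both help ATP synthase to form dimers, and in both the groups overlapped. Atp5j, coupling factor 6, was the most uneven, at 49.5, 61.4 and 24.7 CPM with compound 33, against 14.8, 67.2 and 48.4 CPM with DMSO. Atp5s, which was not tested, had 6, 11 and 5 reads with compound 33, against 3, 3 and 14 with DMSO. The last 150 bases of the main transcripts of Atp5g1, Atp5g2, Atp5h, Atp5o, Cox7c and Ndufa11 match another annotated gene at 95% identity or more over at least 100 bases, so their counts are uncertain.

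Summed over its members, complex V was the complex in which the groups lay apart. Its sum was 4521, 4684 and 4587 CPM with compound 33, against 4943, 4931 and 4833 CPM with DMSO. No complex V member had separate groups by itself. Atp5g3 alone held 1659, 1558 and 1312 CPM of the sum with compound 33, against 1622, 1668 and 1827 CPM with DMSO. With Atp5g3 taken out, the groups of complex V overlap. Complex IV summed to 3604, 3809 and 3300.0 CPM with compound 33, against 3770, 4870 and 3917 CPM with DMSO, where the groups overlapped. Without Cox8a, its most uneven gene, complex IV summed to 2787, 3030 and 2788 CPM, against 3335, 3654 and 3089 CPM with DMSO, and the groups no longer overlapped. For all members without Cox8a the sums were 14219, 15132 and 14703 CPM with compound 33, against 15830.3, 16111 and 15078 CPM with DMSO, which overlapped. Cox8a and Atp5g3 were set aside after their values were seen. Complex I (5006 ± 337 against 5259 ± 334 CPM), complex II (700.1 ± 135 against 744 ± 46.1 CPM) and complex III (1513 ± 34.5 against 1408 ± 147 CPM, mean ± SD, n = 3 per group, compound 33 given before DMSO) overlapped. All 83 members together took 1.5%, 1.59% and 1.52% of the scaled library with compound 33, against 1.63%, 1.73% and 1.59% with DMSO. These sums are weighted to the genes with most reads and are given as a description without a test.

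**Figure D4:**
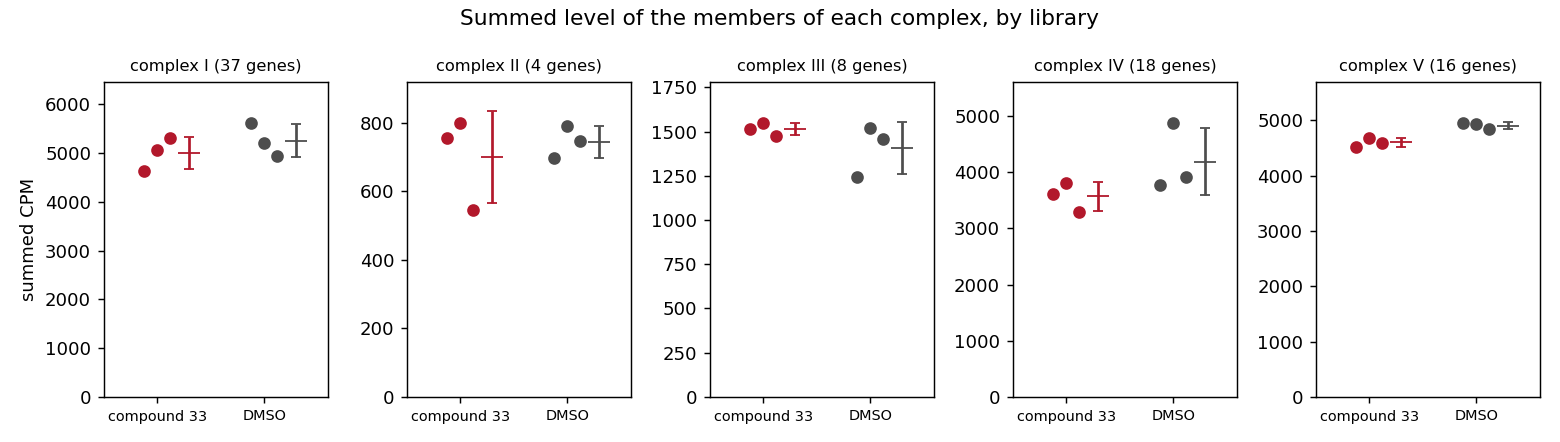
Summed CPM (vertical axis, from 0) of the members of complexes I to V in each library, with compound 33 to the left of DMSO; points are libraries and bars are mean ± SD of 3 libraries. The groups are apart for complex V, at 4521 to 4684 CPM with compound 33 and 4833 to 4943 CPM with DMSO, and overlap for the other complexes. Without Atp5g3, its gene with the largest CPM, the groups of complex V overlap too.

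Libraries of the same group also differed from each other in these genes. Among the compound 33 libraries, replicate 1 was the lowest for 37 of the 76 tested members and replicate 3 for 33, while replicate 3 was also the highest for 32 and replicate 2 for 29. Among the DMSO libraries, replicate 1 was the lowest for 27 members and the highest for 33, and replicate 3 was the lowest for 34. The deviation of a member from its group's mean had an SD of 0.32 log2 units in compound 33 replicate 3 and in DMSO replicate 1, against 0.17 to 0.25 in the other 4 libraries. Over all tested genes this SD was 0.38 and 0.43 in those 2 libraries, against 0.29 to 0.38 in the others. Across the 76 members, Pearson's r between a library's deviations and the length of the main transcript on a log scale was 0.30, 0.21 and -0.32 in compound 33 replicates 1, 2 and 3, against -0.03, 0.13 and -0.11 in DMSO replicates 1, 2 and 3. With GC content r was -0.17, -0.21 and 0.23 with compound 33, against -0.02, 0.10 and -0.09 with DMSO. Over the 10021 tested genes with a main transcript, r with length was 0.09, -0.04 and -0.05 with compound 33, against -0.04, -0.02 and 0.08 with DMSO. Over these genes r with GC content was -0.14, -0.01 and 0.13 with compound 33, against 0.07, -0.05 and -0.04 with DMSO. Since deviations are taken from the group's mean, those of a group's 3 libraries offset each other. The members share their library in each such r and are not independent replicates, and the part of length or GC content in the results was not tested.

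**Figure D5:**
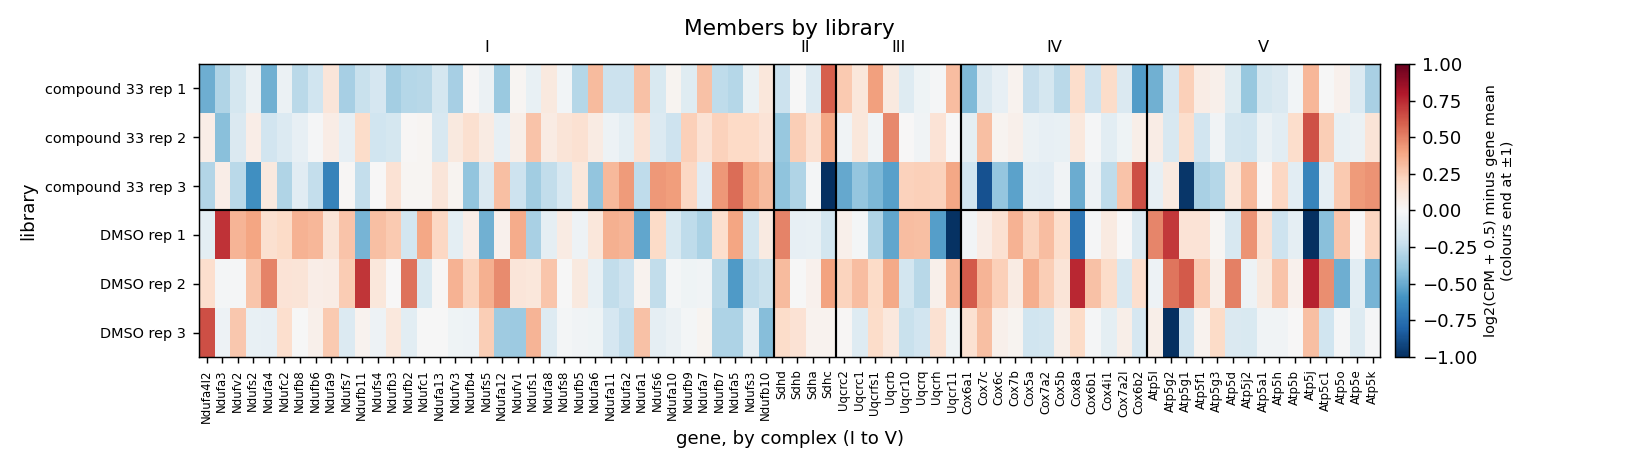
Level of each tested member in each library as log2(CPM + 0.5) minus the gene's mean over the 6 libraries (colour, ending at ±1), with genes along the horizontal axis by complex and libraries down the vertical axis, compound 33 above DMSO. Sdhd is low in all 3 compound 33 libraries, whereas Sdhc is low in compound 33 replicate 3 alone and Cox8a, Uqcr11 and Atp5j are lowest in DMSO replicate 1.

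Genes that assemble, regulate or supply the chain were read from lists beside the members, and none of them passed either. Of the 15 tested complex I assembly factors, 8 were negative with a median log2 fold change of -0.03, and none had an unadjusted p under 0.05 in edgeR. Tmem126b (log2 fold change -0.63, SE 0.31, adjusted p = 0.738) and Ndufaf6 (-0.49, SE 0.42, adjusted p = 0.892) were lower in every compound 33 library. Among 4 complex II assembly factors Sdhaf3, which helps to mature the iron-sulphur subunit, was higher in every compound 33 library, at 6.72, 7.88 and 10.8 CPM against 2.12, 2.26 and 5.92 CPM with DMSO (log2 fold change 1.23, SE 0.49, adjusted p = 0.686). The 20 tested complex IV assembly factors had a median of -0.05 with 12 negative. Higd2a, an assembly factor of complex IV and its supercomplexes, was lower in every compound 33 library, at 218, 245 and 152 CPM against 319, 272 and 289 CPM with DMSO (log2 fold change -0.52, SE 0.22, adjusted p = 0.714). Of the 5 factors of complex V, Tmem70, which is needed for its assembly, was lower in every compound 33 library, at 69.1, 73.4 and 70.5 CPM against 119, 90.7 and 85.6 CPM with DMSO (log2 fold change -0.47, SE 0.22, adjusted p = 0.72). Atpaf1, an assembly factor of the F1 head, was higher in every compound 33 library, at 6.11, 5.80 and 6.18 CPM against 5.30, 4.06 and 4.18 CPM with DMSO (log2 fold change 0.42, SE 0.42, adjusted p = 0.904). The 5 tested complex III factors had a median of 0.05. Groups lay apart for 13.3% of the tested complex I factors, 25% for complex II, 0% for complex III, 5% for complex IV and 40% for complex V. Over all genes tested this share was 13.4%, and these lists are short.

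Of the 7 tested regulators of the members, Yy1 had the largest CPM, at 85.0, 79.2 and 79.8 CPM with compound 33, against 77.9, 99.7 and 87.4 CPM with DMSO (log2 fold change -0.12, SE 0.21). Nrf1 stood at 12.8, 12.4 and 15.4 CPM with compound 33, against 10.6, 14.0 and 12.9 CPM with DMSO. Gabpa stood at 28.0 ± 3.45 CPM with compound 33 and 30.6 ± 1.92 CPM with DMSO, and Tfam, which maintains and transcribes mitochondrial DNA, at 18.8 ± 4.97 CPM with compound 33 and 21.3 ± 1.89 CPM with DMSO (mean ± SD, n = 3 per group). The log2 fold changes of Nrf1, Gabpa and Tfam were 0.11 (SE 0.31), -0.13 (SE 0.24) and -0.18 (SE 0.28). The coactivator Ppargc1a was too low to be tested. The 7 tested regulators had a median of -0.13. Gabpb1 had the smallest p of them and was the only one with separate groups (14.3%, against 13.4% of all genes). It stood at 9.78, 13.3 and 10.3 CPM with compound 33, against 13.8, 14.0 and 16.7 CPM with DMSO (log2 fold change -0.41, SE 0.31, adjusted p = 0.881 in edgeR). Of 18 citric acid cycle genes, 12 were negative with a median of -0.07, and 12 tested genes of mitochondrial DNA expression had a median of 0.19 with 8 positive. Idh2 of the first list (log2 fold change 0.41, SE 0.22, adjusted p = 0.771) and Twnk of the second (0.50, SE 0.31, adjusted p = 0.814) were higher in every compound 33 library. They were the only genes of these lists with separate groups (5.56% and 8.33%, against 13.4% of all genes). Mterf3 of the second list had -0.84 (SE 0.53, adjusted p = 0.823), with overlap. Among 11 tested electron carriers and subunits that the naming rule leaves out, Coq10a was higher (log2 fold change 0.74, SE 0.35, adjusted p = 0.72). It alone had separate groups (9.09%, against 13.4% of all genes). Etfa (-0.54, SE 0.26, adjusted p = 0.72) and Etfdh (-0.47, SE 0.33, adjusted p = 0.859) had negative estimates with overlapping groups. In the same set Cycs, or cytochrome c, stood at -0.24 (SE 0.24), Cyc1 of complex III at -0.05 (SE 0.24) and Ndufab1, the acyl carrier subunit of complex I, at 0.01 (SE 0.20).

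In the authors' deposited table, 0 of the 76 members with an adjusted p were under 0.05, where 18 of 10063 genes (0.179%) were. At an unadjusted 0.05 the authors' deposited table held 3 members, Sdhd (log2 fold change -0.67), Cox6a1 (-0.51) and Cox6a2 (2.16), against 4.2% of all its genes with a p-value. All 76 members tested in edgeR had the same sign in the authors' deposited table, which rests on the same libraries and is no independent measurement.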

How the data were processed

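Per the labels' protocols, RNA with an integrity number above 7 was made into 3′ mRNA libraries and sequenced on an Ion Proton instrument. Per the submitters' processing notes, the tools were HISAT2 2.2.1, featureCounts 2.0.3, FastQC 0.11.9 and DESeq2, with the build mm10. The sources used here give no annotation, no strand setting and no rule for reads that match several genes. The authors deposited whole-number read counts per gene symbol. Their deposited comparison table gives a mean normalized signal, a log2 fold change with its standard error, a Wald statistic (a score), a p-value and an adjusted p-value per gene.

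Counts were tested in R 4.3.3 with edgeR 4.0.16 (filterByExpr, minimum count 10; TMM scaling; robust quasi-likelihood F test, two-sided; Benjamini-Hochberg adjustment over 10124 genes, threshold 0.05). Each standard error was derived from the fold change and its F statistic. The fits were run on simulated data with planted changes of 2-fold or more. Smaller changes, and changes in genes with few reads, were not simulated. The typical coefficient of variation between libraries was 23.6%. Alternatives were other scalings and filters, DESeq2 1.42.0, limma-voom (limma 3.58.1), the replicate number as a block, and each library left out. Gene coordinates, transcript lengths and overlaps come from GENCODE M21 (mm10), where 82 members matched a single gene, and promoters from RefSeq. Medians and counts over members carry no test. The rule for values in every library took members with an unadjusted p under 0.05, the 3 with the largest CPM and the extremes of each complex, and alternative isoforms. Of each other list it allowed up to 3 genes with the smallest p. Not all of those genes are given, and other genes of the lists are. Further genes were added after their values were seen. The members and lists were chosen with earlier results of these data known.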

Additional observations from a re-analysis of the deposited data

How the results depend on the processing

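No member passed in any of the 14 alternatives, where the smallest adjusted p of a member lay between 0.369 and 0.876. Genes passing over the whole table numbered 3 in the analysis reported, 21 without a low-count filter, 18 with DESeq2, 7 with the replicate number as a block, and 1 to 7 with a library left out. Same-numbered libraries did not deviate together in every pair (r = -0.03, 0.21 and 0.08), so the numbers were not taken to pair them; with that replicate block 0 members passed. Members under an unadjusted 0.05 numbered 2 to 7 with a library left out. The medians ran, with each library left out, from -0.19 to -0.031 for all members, -0.20 to -0.034 for complex I, -0.17 to 0.066 for complex II, -0.06 to 0.10 for complex III, -0.31 to -0.16 for complex IV and -0.12 to -0.018 for complex V. For complex V the median over all libraries, -0.14, was lower than with any library left out, and it was -0.09 with DESeq2 and without a low-count filter. The other 8 alternatives moved the medians by less than the spread between replicates. Of 29 tested members followed across alternatives 17 kept their sign, Sdhd and Cox6a1 among them. The 95% interval of a member's log2 fold change reached 0.49 to either side at the median.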

Other observations

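Ppargc1b, a coactivator of mitochondrial genes that was too low to be tested, had 3 reads in each compound 33 library, against 0, 1 and 1 reads in the DMSO libraries. It was chosen after its values were seen, and no fold is given at such counts. Lrpprc, which stabilises mitochondrial mRNAs, stood at 367, 491 and 1228 CPM with compound 33, against 592, 373 and 507 CPM with DMSO, with compound 33 replicate 3 the highest library (log2 fold change 0.50, SE 0.38, adjusted p = 0.877 in edgeR).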
